A study of Mus musculus with 4 samples.

Results

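The genes described here are 10 components of bone morphogenetic protein (BMP) signalling in mouse embryonic stem (ES) cells: the ligand gene Bmp4, the receptor genes Bmpr1a and Bmpr2, the Smad genes Smad1, Smad5 and Smad6, and the 4 Id genes Id1, Id2, Id3 and Id4. They were taken by name, as all probe sets that the platform annotation assigns to exactly 1 gene when that gene is on this list. All 10 genes were found, with 25 probe sets, among 18193 genes with 34945 probe sets on the arrays. A probe set is a group of short array probes directed at 1 transcript. Transcript levels came from 4 Affymetrix arrays with 1 colour each: Snai1 knockout ES cells (titled KO.ES) had 2 of them and control ES cells (titled F/F.ES) the other 2. Snai1 encodes the transcriptional repressor Snail. Both groups were grown in the same way, with leukaemia inhibitory factor on feeder cells and with no treatment, and 250 ng of total RNA per array was amplified from the 3' end. The control cells have the genotype entry "control", but their source name also contains the words "knock out", and what F/F means is unstated in the labels, as are the strain, the number of clones, the passage or how Snai1 was deleted. The arrays of a group are called biological replicates without a statement of what separated them, so p-values measure only the spread between these samples, which may be technical.

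BMP ligands such as BMP4 bind a complex of type I receptors, of which Bmpr1a encodes one, and type II receptors, of which Bmpr2 encodes one. The type I receptor kinase phosphorylates Smad1 and Smad5, which enter the nucleus with Smad4 and activate target genes, and Smad6 is an inhibitory Smad that damps the signal. The Id genes are classical targets of this pathway and encode helix-loop-helix proteins without a DNA-binding region, which bind E proteins and keep them from activating lineage genes. In mouse ES cells BMP4 together with leukaemia inhibitory factor is known to sustain self-renewal through Id proteins.

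The values are log2 expression values per probe set as the authors deposited them. The 4 array medians lay between 4.91 and 4.95, and the small number of arrays limits the precision of each comparison. Background was read from 27 control probe sets for Bacillus transcripts, which lay between 2.91 and 4.77. The Snai1 probe set was at 3.79 and 4.04 in knockout cells against 4.41 and 4.69 in controls, all within this background range, so it is no check of the labels. Of the 8 ES cell markers examined all lay above the background range on every array, between 9.09 and 14.25, as the label of the samples would have it. Control probe sets at the 3' and 5' ends of Actb differed by 1.11 and 0.80 in the knockout arrays and by 3.02 and 2.97 in the control arrays, and those of Gapdh by 0.40 and 0.27 against 1.24 and 1.48. This 3' to 5' gap, a reading of RNA integrity and labelling, was therefore larger in the control by 2.04 for Actb and by 1.02 for Gapdh (log2), and it accompanies every comparison between the groups below.

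Of the 10 genes 1, Bmpr2, passed the threshold of an adjusted p of 0.05 and was lower in the knockout, and none was higher. The test was limma with Benjamini-Hochberg adjustment over 18193 genes, each represented by its brightest probe set, and each difference is the knockout mean less the control mean in log2 units. Over all genes 4.14% passed, 2.17% lower and 1.98% higher in the knockout. When only genes with a mean above the background range were tested, 7.65% of them passed, and again 1 of the 10. The 1 call among 10 genes is close to that share and is not read as a result about the set. At an unadjusted p under 0.05 there were 5 of the 10 genes, where 23.9% of all genes had one. Groups were fully separated in 8 of the 10 genes and in 52.3% of all genes. These shares include 5308 genes that lay within the background range on all arrays, as none of the 10 did, so they are not shares of expressed genes. The median difference of the 10 genes was -0.11, against -0.02 over all genes. By their brightest probe sets, Bmpr1a, Bmpr2, Smad1, Smad5, Id2 and Id4 lay lower in the knockout and Bmp4, Smad6, Id1 and Id3 higher, and no test of role was run.

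**Figure D1:**
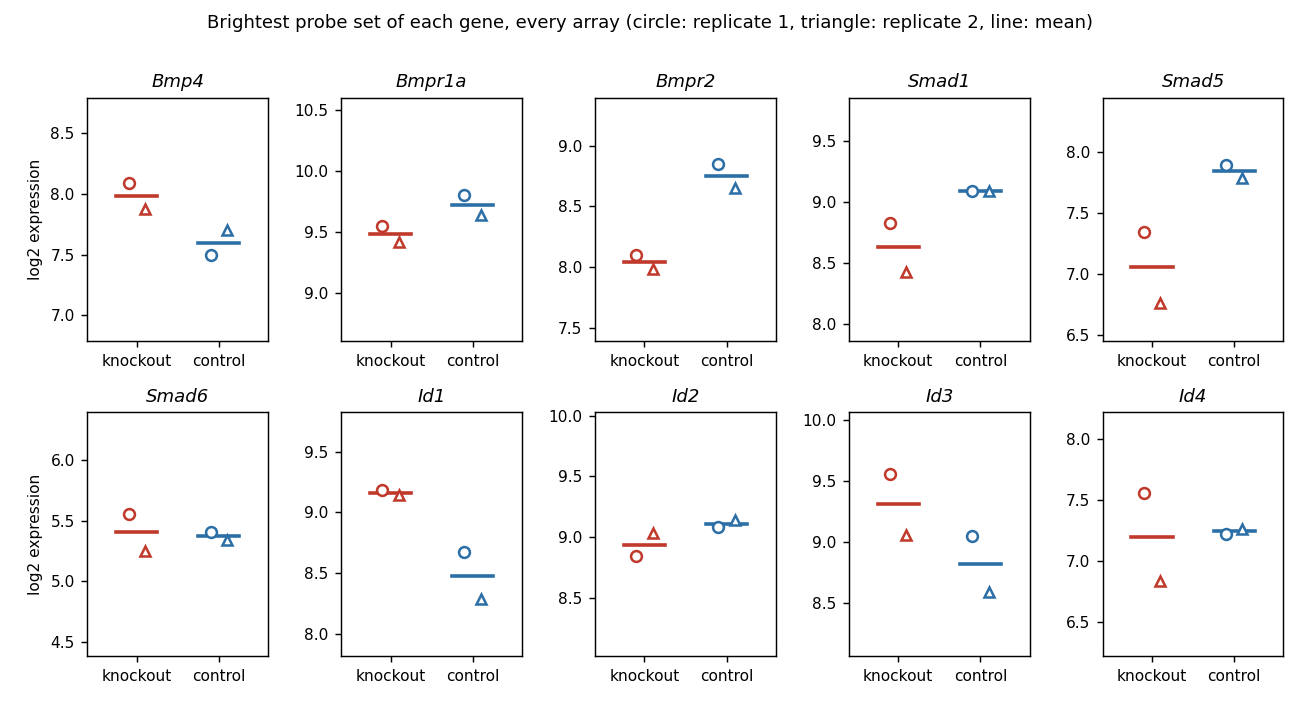
Log2 expression of the brightest probe set of each of the 10 genes on every array, with knockout in red and control in blue, circles for replicate 1, triangles for replicate 2 and lines for group means; each panel spans 2 log2 units around its own mean, and levels are not comparable between panels. Bmpr2 lay at 8.10 and 7.99 in knockout cells against 8.85 and 8.65 in controls, and the groups overlapped only for Smad6 and Id4.

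When each probe set with 1 gene symbol was tested singly, 0 of the 25 passed (limma, Benjamini-Hochberg over 34945 probe sets), where 0.790% of all probe sets did. At an unadjusted p under 0.05 there were 8 of the 25 (21.7% of all probe sets). The groups did not overlap for 17 of the 25 (51.5% of all probe sets). Of the 25, 20 lay above the background range on all 4 arrays and 2 on none. For a gene's brightest probe set the adjusted p below comes from the fit over genes, and for its other probe sets from the fit over single probe sets.

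**Figure D2:**
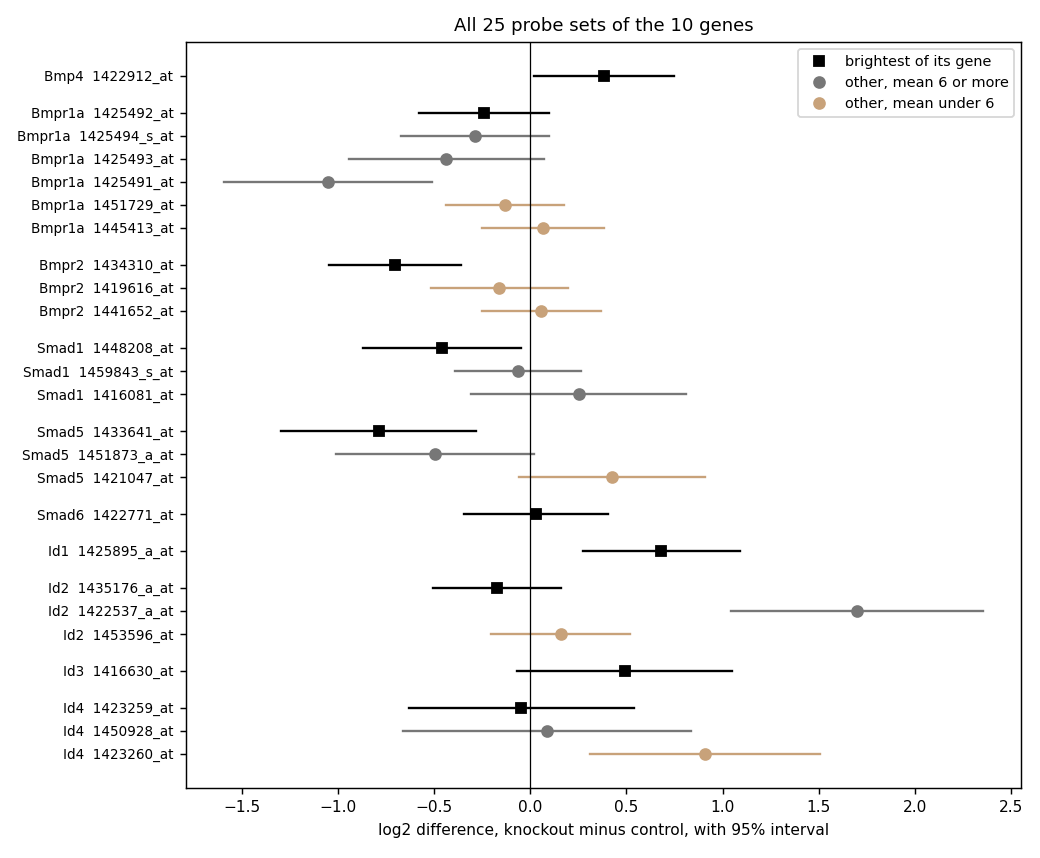
Log2 difference, knockout minus control, of all 25 probe sets with its 95% interval (limma, single probe sets), grouped by gene; black squares mark the brightest probe set of a gene, grey circles others at a mean of 6 or more and tan circles others at a mean under 6. The differences ran from -1.05 for a Bmpr1a probe set to 1.70 for an Id2 probe set, and the probe sets of Id2 spread most.

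The ligand gene Bmp4 was measured by 1 probe set (1422912_at), at 8.08 and 7.88 in knockout cells against 7.49 and 7.70 in controls. Both knockout arrays lay above both control arrays. The difference was 0.38 ± 0.15 (SE) with a 95% interval of 0.03 to 0.74, which missed the threshold (limma, adjusted p = 0.177). Its adjusted p lay between 0.0949 and 0.473 over 15 alternative settings. Snail binds the E-box letters CAGGTG, and the RefSeq promoter of Bmp4 was the only one among the members to hold them, which is why it is shown. RefSeq promoters (assembly GRCm38.p6, 250 bases before to 50 after the start) were available for 9 of the 10 genes, as 11 promoters; Id1 was not matched. CAGGTG or, on the other strand, CACCTG stood in 20.2% of all 32851 promoters of this length. In the Bmp4 promoter (chr14:46390620-46390919, minus strand), in which capitals mark this motif, its first letter lies 177 bases before the start.
Bmp4: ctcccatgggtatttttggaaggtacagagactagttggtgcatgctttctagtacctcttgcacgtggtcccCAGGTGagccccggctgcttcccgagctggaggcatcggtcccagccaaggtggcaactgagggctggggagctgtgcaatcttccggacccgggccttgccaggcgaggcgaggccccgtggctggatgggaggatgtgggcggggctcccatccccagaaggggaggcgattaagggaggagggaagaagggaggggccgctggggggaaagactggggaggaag
A match is a description of the letters in this window. No binding was measured here.

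Bmpr2, the type II receptor that carries the BMP signal to type I receptors, was the member that passed. Its brightest probe set (1434310_at) lay at 8.10 and 7.99 in knockout cells against 8.85 and 8.65 in controls. The knockout lay lower on both arrays, with no overlap. The group means were 8.04 ± 0.08 and 8.75 ± 0.14 (SD, n = 2 each), a fall by 0.70 ± 0.14 (SE), or 1.63-fold, with a 95% interval of -1.04 to -0.37 (limma adjusted p = 0.0458). The call was lost in 9 of 15 alternative settings, and its adjusted p ran from 0.00682 to 0.251 over all 15. Among the 9 were the fits with each array left out in turn. There the difference ran from -0.61 to -0.80, but 1 array alone stood for a group and far fewer genes of any kind passed. In the fit over single probe sets the adjusted p of this Bmpr2 probe set was 0.0655. The other 2 probe sets of Bmpr2 were dim, at means of 4.89 and 4.73, in or just above the background range. They differed by -0.16 (adjusted p = 0.605) and 0.06 (adjusted p = 0.851), and with all 3 averaged the difference was -0.27 (adjusted p = 0.251).

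Bmpr1a, the type I receptor, was measured by 6 probe sets, of which 5 lay lower in the knockout. The brightest (1425492_at) was at 9.55 and 9.42 in knockout cells against 9.80 and 9.64 in controls. The groups did not overlap, but the difference of -0.24 ± 0.14 (SE) had a 95% interval of -0.57 to 0.09 and did not pass (adjusted p = 0.361). The probe set 1425491_at was at 6.80 and 6.49 in knockout cells against 7.42 and 7.98 in controls. This difference of -1.05 ± 0.22 (SE), from -1.59 to -0.51 at 95%, did not pass either (adjusted p = 0.0689, single probe sets). The other bright probe sets differed by -0.29 (1425494_s_at) and -0.44 (1425493_at), so all 4 at a mean of 6 or more lay lower, with differences from -0.24 to -1.05. Of the dim ones, 1451729_at differed by -0.13 and 1445413_at, on all arrays within the background range, by 0.07.

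The GC-rich letters GGCGCC are a known Smad-binding element of BMP target genes, and they stood in the promoters of 5 of the 9 matched members (Bmpr1a, Bmpr2, Smad5, Id2 and Id4). Over all 32851 promoters of this length 11.9% held them, and the member promoters are 59.3% to 79.3% G and C, against a median of 52.7% over all promoters. Those of Bmpr2 (chr1:59764029-59764328, plus strand) and Id2 (chr12:25096043-25096342, minus strand) are shown because Bmpr2 passed the test and because the Id2 probe sets disagreed. Capitals mark GGCGCC, whose first letter lies 105 bases before the start in Bmpr2 and 231 bases before it in Id2.
Bmpr2: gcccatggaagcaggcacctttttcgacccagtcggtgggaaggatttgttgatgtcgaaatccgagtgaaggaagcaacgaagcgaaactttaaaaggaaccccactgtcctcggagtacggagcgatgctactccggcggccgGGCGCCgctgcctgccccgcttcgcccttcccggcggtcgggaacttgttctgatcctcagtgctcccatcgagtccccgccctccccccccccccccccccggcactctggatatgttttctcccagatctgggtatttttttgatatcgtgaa
Id2: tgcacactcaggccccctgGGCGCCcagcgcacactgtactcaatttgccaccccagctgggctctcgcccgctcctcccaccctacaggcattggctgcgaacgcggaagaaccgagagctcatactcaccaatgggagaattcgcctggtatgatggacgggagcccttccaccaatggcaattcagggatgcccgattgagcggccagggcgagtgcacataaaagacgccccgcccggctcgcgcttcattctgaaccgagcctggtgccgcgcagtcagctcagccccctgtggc
The motif stood both in genes that lay lower and in genes near 0 in the knockout, and no relation between motif and difference was tested.

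Smad1 and Smad5 encode the receptor-activated Smads of the pathway. The brightest Smad5 probe set (1433641_at) was at 7.34 and 6.76 in knockout cells against 7.89 and 7.79 in controls. Both knockout arrays lay below both control arrays, and the knockout arrays stood 0.58 apart. The difference of -0.79 ± 0.20 (SE; 95% interval -1.26 to -0.32) did not pass (adjusted p = 0.0688). Without knockout replicate 2 it was -0.50, without knockout replicate 1 -1.08, and with all 3 Smad5 probe sets averaged -0.29 (adjusted p = 0.440). The adjusted p of Smad5 lay between 0.00646 and 0.440 over 15 alternative settings (limma), and Smad5 passed in 3 of them. A further Smad5 probe set (1451873_a_at) differed by -0.50 ± 0.21 (SE, adjusted p = 0.246). The dim probe set 1421047_at, at a mean of 4.98, differed by 0.42 ± 0.20 (SE) in the opposite direction (adjusted p = 0.287).

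The brightest Smad1 probe set (1448208_at) was at 8.83 and 8.43 in the knockout and at 9.09 on both control arrays. Both knockout arrays lay lower, with a difference of -0.46 ± 0.17 (SE; 95% interval -0.85 to -0.07, adjusted p = 0.149). The other Smad1 probe sets did not share it. The probe set 1459843_s_at, whose suffix marks probes that other transcripts may share, was at 8.41 and 8.34 against 8.52 and 8.36, and 1416081_at was at 6.32 and 6.26 against 6.38 and 5.70, with differences of -0.06 and 0.25. With its 3 probe sets averaged, Smad1 differed by -0.09 (adjusted p = 0.790).

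Smad6, the inhibitory Smad and itself a BMP target, was measured by 1 probe set (1422771_at), at 5.56 and 5.25 in knockout cells against 5.41 and 5.34 in controls. The groups overlapped. The difference was 0.03 ± 0.15 (SE), with a 95% interval of -0.33 to 0.39 (adjusted p = 0.940). All 4 values lay above the background range by less than 1 log2 unit.

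Among the Id genes none passed the threshold by its brightest probe set (limma), 1 of 4 had an unadjusted p under 0.05 (23.9% of all genes did), and 2 lay higher and 2 lower in the knockout. Id1 (1425895_a_at, the only probe set) was at 9.18 and 9.14 in knockout cells against 8.68 and 8.29 in controls. The knockout arrays lay close together and above both control arrays, which were 0.39 apart. The difference was 0.68 ± 0.17 (SE; 95% interval 0.29 to 1.07, adjusted p = 0.0617). Its adjusted p lay between 0.0100 and 0.270 over 15 settings, and it passed in 2 of them.

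Id3 (1416630_at, the only probe set) was at 9.56 and 9.06 in knockout cells against 9.05 and 8.59 in controls. The groups were separated by 0.01 only, between knockout replicate 2 and control replicate 1. The difference was 0.49 ± 0.22 (SE; 95% interval -0.03 to 1.01, adjusted p = 0.231). Replicate 1 lay above replicate 2 by 0.50 in the knockout and by 0.45 in the control, beside the group difference of 0.49. The promoter of Id3 (chr4:136143572-136143871, plus strand) held another Smad-binding sequence, CAGAC, on each strand, which is why it is shown with both copies in capitals. These letters or, on the other strand, GTCTG stood in 49.6% of all promoters and, among the members, in Id3 and Smad5.
Id3: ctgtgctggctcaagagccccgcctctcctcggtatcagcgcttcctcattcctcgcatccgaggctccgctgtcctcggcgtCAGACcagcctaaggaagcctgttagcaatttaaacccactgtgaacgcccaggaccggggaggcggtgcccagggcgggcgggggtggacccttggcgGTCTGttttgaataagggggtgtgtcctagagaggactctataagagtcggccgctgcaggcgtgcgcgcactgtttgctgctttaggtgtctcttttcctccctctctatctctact
The first letters of these copies lie 167 and 68 bases before the start.

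Id2 was the member whose probe sets disagreed most. The brightest (1435176_a_at) was at 8.85 and 9.03 in knockout cells against 9.08 and 9.14 in controls, so both knockout arrays lay slightly lower. Its difference was -0.17 ± 0.14 (SE; 95% interval -0.50 to 0.15, adjusted p = 0.529). The second Id2 probe set (1422537_a_at) was at 9.00 and 9.13 in the knockout but at 7.78 and 6.95 in the control. Both knockout arrays lay above both control arrays, and the control arrays were 0.83 apart. This difference of 1.70 ± 0.27 (SE; 95% interval 1.05 to 2.36), or 3.25-fold, was the largest among the 25 probe sets but did not pass (adjusted p = 0.0521, single probe sets). The third Id2 probe set (1453596_at) lay within the background range on all 4 arrays and differed by 0.16.

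Within each array, the second Id2 probe set exceeded the brightest by 0.16 and 0.10 in knockout cells, whereas the same subtraction gave -1.30 and -2.20 in controls. The gap differed by 1.87 between the groups, with no overlap; an exact permutation test of 2 arrays against 2 cannot go below p = 0.333 (two-sided), which it reached. Over 3534 genes with at least 2 probe sets at a mean of 6 or more, the differences of a gene's probe sets spanned a median of 0.45, and the span of Id2 exceeded that of 96.6% of these genes. The same arrays differed in the 3' to 5' gap of Actb by 2.04 and of Gapdh by 1.02, and the part of this in the Id2 gap was not tested, since the positions of the Id2 probes along the transcript were not used here. The 2 bright Id2 probe sets therefore give opposite signs for the gene, and no direction is given for Id2.

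**Figure D3:**
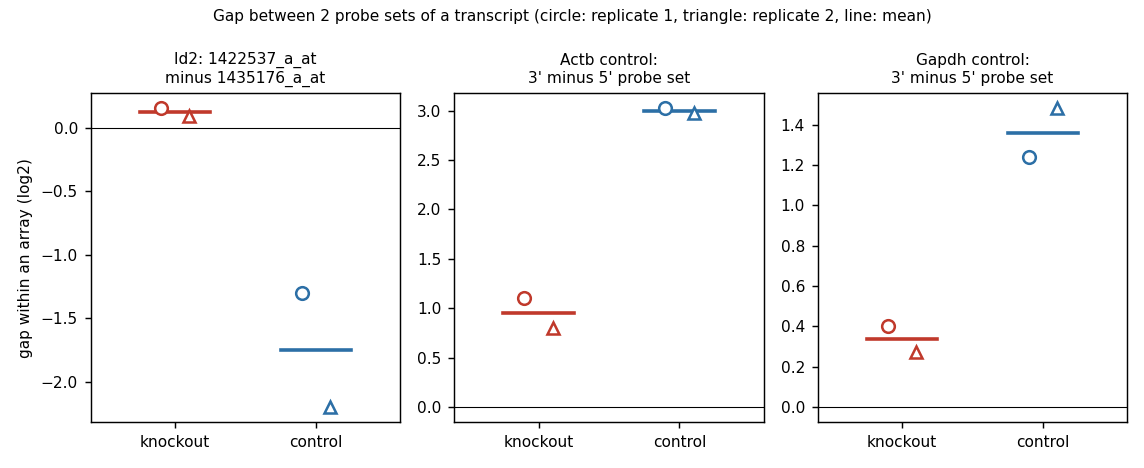
Gap between 2 probe sets of 1 transcript within each array (log2), for the 2 bright Id2 probe sets and for the 3' minus 5' control probe sets of Actb and Gapdh, with knockout in red, control in blue, circles for replicate 1, triangles for replicate 2 and lines for means; the vertical scales differ. In all 3 panels the knockout arrays lie near each other and apart from the control arrays, by 1.87 for Id2, 2.04 for Actb and 1.02 for Gapdh in size.

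Id4 was measured by 3 probe sets. The brightest (1423259_at) was at 7.56 and 6.83 in knockout cells against 7.22 and 7.26 in controls. The control arrays lay between the knockout arrays, and the difference was -0.05 ± 0.23 (SE; 95% interval -0.59 to 0.49, adjusted p = 0.940). The probe set 1450928_at was at 6.65 and 6.12 against 6.72 and 5.88 and followed the replicate number more than the group. The third (1423260_at) was at 6.41 and 6.29 in knockout cells against 5.81 and 5.07 in controls, without overlap. It differed by 0.91 ± 0.25 (SE; adjusted p = 0.105, single probe sets), so for Id4 too a less bright probe set lay higher in the knockout while the brightest did not.

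Differences over all genes varied with genomic span, the length of a gene in the genome, and the members differ widely in it. The 4 Id genes span 1.16 to 4.91 kb and Bmp4 7.14 kb, whereas Smad5 spans 39.4 kb, Smad1 61.0 kb, Smad6 69.0 kb, Bmpr1a 92.3 kb and Bmpr2 114 kb. Among all genes with a mean of at least 6, the median difference was 0.13 for the 1107 genes under 5 kb, 0.02 for 3176 genes from 5 to 20 kb, -0.17 for 2698 genes from 20 to 50 kb and -0.27 for 2489 genes of 50 kb or more. In the shortest class 8.67% passed as higher and 1.08% as lower, and in the longest class 1.29% and 7.35%. After the trend over span and mean level was taken out of each array, Bmpr2 differed by -0.47 ± 0.13 (SE, adjusted p = 0.0962), Smad5 by -0.66 (adjusted p = 0.0940), Smad1 by -0.25 (adjusted p = 0.353) and Bmpr1a by 0.00 (adjusted p = 0.989). Id1 then differed by 0.40 (adjusted p = 0.270), Id3 by 0.22 (adjusted p = 0.677) and Bmp4 by 0.27 (adjusted p = 0.298). These 7 genes moved towards 0, whereas Id2 at -0.41 (adjusted p = 0.109), Id4 at -0.17 (adjusted p = 0.735) and Smad6 at 0.11 (adjusted p = 0.726) moved away from it, and none of the 10 genes passed. Whether span has a part in these differences was not tested beyond this removal. The removal did not use the 3' to 5' gap, whose part was not tested.

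**Figure D4:**
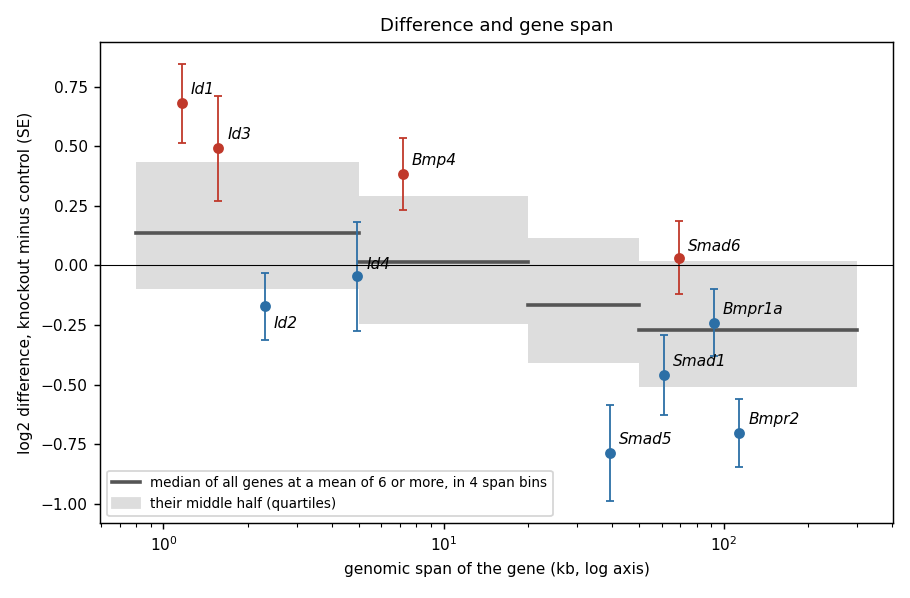
Log2 difference, knockout minus control, of the brightest probe set of each of the 10 genes with its SE (red above 0, blue below) against the genomic span of the gene on a log axis; grey lines and bands give the median and the middle quartiles of all genes at a mean of 6 or more in 4 span classes, of which the outer ones are open-ended. The medians fall from 0.13 to -0.27 with span; Bmp4, Id1 and Id3 lie above the band of their class, Id2, Smad5 and Bmpr2 below theirs, Bmpr1a close to the median of its class, and Smad6, whose own mean is under 6, just above the band.

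The replicate number was visible in several of these genes. Replicate 1 lay above replicate 2 for 9 of the 10 genes in the knockout and for 7 of 10 in the control. Feeder layers usually consist of fibroblasts. Of 23 measured fibroblast markers, 18 were higher in replicate 1 in the knockout and 21 in the control, and 20 of the 23 lay above the background range on all arrays. Their mean level was 7.79 in replicate 1 and 7.12 in replicate 2 of the knockout, against 7.96 and 7.33 for the controls, so these means differed more between replicates than between groups. Of these markers 1, Ccl2, passed as higher and none as lower (4.35%, against 4.14% of all genes). By sign 13 of the 23 lay lower and 10 higher in the knockout, with a median difference of -0.21. Their differences ran from -1.24 for Prrx1, which did not pass, to 0.77 for Ccl2. In such bulk samples, fewer cells of a type and less RNA per cell cannot be told apart, and Id1, Id3 and the Smads are also expressed in fibroblasts. The mean level of the 8 ES cell markers was 11.84 and 11.71 in knockout cells against 11.16 and 11.23 in controls. Of these markers 4 passed as higher (Utf1, Esrrb, Nanog and Pou5f1), where 1.98% of all genes did, and none as lower. The others differed little, with Sox2 at -0.02, Zfp42 at 0.02, Tdgf1 at 0.02 and Dppa5a at 0.14. The share of 1.98% includes genes within the background range. At a mean of 6 or more, 8.67% of genes under 5 kb and 4.69% from 5 to 20 kb passed as higher. The 8 ES cell markers had a median span of 5.65 kb. The part of either cell type in the differences above was not tested.

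The wider BMP pathway was examined with a list of 57 other genes, of which 54 were measured. Of these 1 rose (Acvr2b) and 1 fell (Acvr2a), 3.70% in all against 4.14% of all genes, and 52 did not pass. At an unadjusted p under 0.05 there were 16 of 54, where 23.9% of all genes had one. The median difference was 0.04. Of the 54 genes 18 lay within the background range on all arrays, among them 6 of 11 ligands and 7 of 19 antagonists. Both genes that passed encode type II receptors shared by activins and BMPs, but they moved in opposite directions. No test of role was run.

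Acvr2a (1437382_at) was at 7.20 and 7.07 in knockout cells against 7.86 and 7.71 in controls. Both knockout arrays lay lower, by 0.66 in the mean. The fall by 0.66 ± 0.14 (SE) passed by a small margin (adjusted p = 0.0494), and its other probe set, also bright, differed by -0.66 ± 0.16 (SE, adjusted p = 0.0829, single probe sets). Acvr2b (1419140_at) was at 8.97 and 8.76 in knockout cells against 7.88 and 6.98 in controls. It rose by 1.43 ± 0.28 (SE, adjusted p = 0.0434), whereas its other bright probe set (1439856_at), at 6.95 and 7.12 against 6.74 and 6.62, differed by 0.36 ± 0.14 (SE, adjusted p = 0.208, single probe sets). The call of Acvr2a was lost in 9 of 15 alternative settings, among them the removal of the span trend (limma adjusted p = 0.0928). The 9 include the fits with each array left out in turn, where few genes of any kind passed. In those fits the difference of Acvr2a ran from -0.58 to -0.73. The call of Acvr2b was kept after removal of the trend (adjusted p = 0.0418). With 1 array left out it was kept without control replicate 1 and lost without any other array, and the difference ran from 0.98 to 1.89. With its 3 probe sets averaged Acvr2b differed by 0.57 (adjusted p = 0.0673), and adjusted over single probe sets its p was 0.0667, so the call was lost in both.

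In the other roles no gene passed (limma); the counts at an unadjusted p under 0.05 that follow stand beside 23.9% over all genes. Among 11 measured ligand genes, 2 had an unadjusted p under 0.05 and 6 lay within the background range on all arrays, and the largest difference was that of Bmp10, at 0.48 but within that range. Gdf3, a ligand of ES cells that was named after its values were seen, was at 10.35 on both knockout arrays and 9.77 and 10.07 in the control (0.43 ± 0.15, SE, adjusted p = 0.136). Among 5 other Smads and Smad ubiquitin ligases (3 at an unadjusted p under 0.05) the largest was that of Smad7, the second inhibitory Smad and a BMP-responsive gene. It was at 9.68 and 9.29 in knockout cells against 9.05 and 8.72 in controls, a difference of 0.60 ± 0.19 (SE, adjusted p = 0.102). Of the 19 measured antagonists and modulators 3 had an unadjusted p under 0.05, and Fst, the activin antagonist follistatin, differed most, by -0.77 ± 0.28 (SE, adjusted p = 0.157). The 10 further BMP-responsive genes, which include Smad7, had a median difference of 0.01 and 3 genes at an unadjusted p under 0.05. Of the 3 E protein genes, whose products the Id proteins bind, 2 had an unadjusted p under 0.05. Tcf3, which encodes E2A, was at 9.58 and 9.54 in knockout cells against 8.58 and 9.05 in controls (0.75 ± 0.18, SE, adjusted p = 0.0610).

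**Figure D5:**
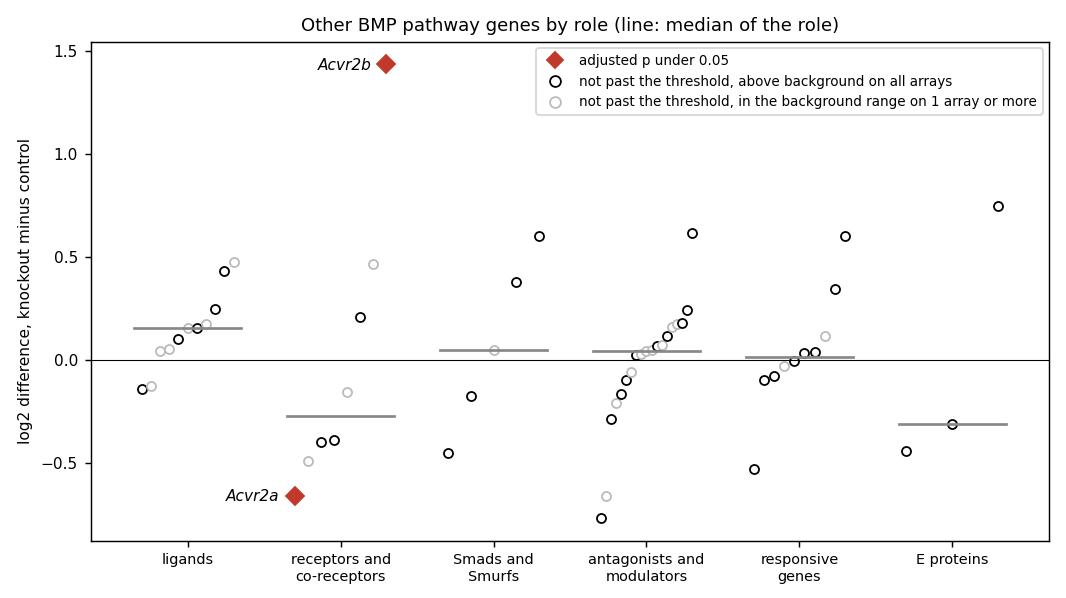
Log2 difference, knockout minus control, of the 54 measured genes of the wider pathway list by role, each point a gene by its brightest probe set and each line the median of its role; Smad7 and Bambi appear in 2 roles. Red diamonds are the 2 genes past the threshold, Acvr2b at 1.43 and Acvr2a at -0.66, and grey circles are genes within the background range on at least 1 array.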

How the data were processed

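RNA of 4 samples (2 groups, 2 arrays each) was measured on Affymetrix 3' arrays, grouped and numbered by their titles. The deposited values are log2 expression per probe set (45101 probe sets, 2.56 to 14.78); per the submitters' processing notes RMA and limma were used, with settings and genome build not given in the sources used here. RMA makes the arrays' distributions nearly alike, so a change common to most genes could go unseen. The values were used as deposited. Probe sets were named by GEO's platform annotation of the array (34958 with 1 gene symbol, 932 with several, 9211 with none), with symbols checked by gene ID against RefSeq (GRCm38.p6; 0 changed). Without control probe sets 34945 remained, for 18193 genes. The brightest probe set (highest mean over the 4 arrays) stood for a gene. Genomic span came from the RefSeq table (99.7% of genes).

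Knockout minus control was fitted with limma 3.58.1 (lmFit, eBayes) in R 4.3.3 over all genes, and again over all 34945 probe sets, with two-sided p-values, Benjamini-Hochberg adjustment and a threshold of 0.05. Intervals (95%) use limma's moderated errors, with 5.31 prior degrees of freedom over genes, 4.22 over probe sets and 2 residual ones in each fit. The fit was run on simulated data with independent noise. These held no replicate effect, 3' to 5' gap or span trend, so the simulation could not check for them. All 10 genes and all their probe sets were named. Of each role in the wider list, genes past the threshold were named, or else the one with the largest difference. The members and lists were chosen with earlier results of these data known. Alternatives were a trend or robust prior, scaling, filters on dim genes, averaging probe sets, removal of the span trend (loess, span 0.3), a replicate block and the removal of 1 array at a time.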

Additional observations from a re-analysis of the deposited data

How the results depend on the processing

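Of the 10 genes, 1 passed in the main setting. This count was 0 with an intensity trend in eBayes (2.64% of the genes tested passed) and with a further quantile normalization (4.75%). The count was also 0 with the mean of all probe sets (1.76%), when adjusted over all probe sets (0.649%) and after removal of the span trend (3.24%). It was 3 (Bmpr2, Smad5 and Id1) over genes at a mean of 6 or more, where 12.9% of genes passed. With the replicate block it was 4 (Bmpr2 and Smad5 lower, Id1 and Id3 higher), where 17.0% of all genes passed. With the block after removal of the span trend it was 2 (Bmpr2 and Smad5, both lower), where 13.5% did. Without each array in turn it was 0 to 0. The replicate numbers pair no samples by the labels. Across genes, replicate 1 minus replicate 2 correlated between the groups with r = 0.29. Of the 25 probe sets 0 passed in the main setting. The count was 1, the Id2 probe set 1422537_a_at, with a trend, a robust prior, quantile normalization or either filter. In these settings 1.18% to 5.19% of the probe sets tested passed. It was 6 with the replicate block, 1422537_a_at among them, where 6.7% of all probe sets passed. Of the 54 wider pathway genes 2 passed in the main setting. The count was 1 with a trend (Acvr2b) or with the mean of all probe sets (Smurf1), where 2.64% and 1.76% of all genes passed. It was 0 adjusted over all probe sets, where 0.649% of all genes passed. With the replicate block it was 10, where 17.0% of all genes passed, and with the block after span trend removal 7, where 13.5% did. Left-out fits assume that the lone array varies like the remaining pair.

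Signs turned for 4 of the 10 genes. Bmpr1a was at 0.0047 after removal of the span trend, with and without the block. Id2 was at 0.56 and Id4 at 0.32 with the mean of all probe sets, and Id4 at 0.016 with quantile normalization. Without each array Id4 ran from -0.41 to 0.32 and Smad6 from -0.12 to 0.18, with Smad6 at -0.0028 without control replicate 2. Of all genes past the threshold 360 were higher and 394 lower. This split was 527 to 337 with a further quantile normalization, 348 to 438 with median centring and 383 to 204 after removal of the span trend. The count of all genes past it was 4 to 50 without each array and 321 with the mean of all probe sets.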
